A study of Homo sapiens with 40 samples.

Results

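The genes followed here were NFE2L2, which encodes the transcription factor NRF2, and 8 genes counted among its targets or among the aldo-keto reductases: AKR1C1, AKR1C2, AKR1C3, AKR1B10, NQO1, GCLM, HMOX1 and TXNRD1. These 9 genes, of 60708 in each count table, were picked by symbol with earlier results from these same counts known. Their levels, differences and calls are therefore given as a description, and p-values are printed only for 69 other genes of the same pathway, whose lists were also drawn up with earlier results known. NRF2 is held in the cytoplasm and sent for degradation by KEAP1, and when oxidants or reactive carbonyls modify KEAP1 the factor accumulates, enters the nucleus and pairs with small MAF proteins on antioxidant response elements, where BACH1 competes with it. Its control is exerted largely on the protein, so the NFE2L2 transcript does not report its activity. The targets supply glutathione and reduced thioredoxin, regenerate NADPH, degrade haem and reduce quinones and carbonyls. Aldo-keto reductases use NADPH to turn aldehydes and ketones into alcohols, and those of the AKR1C family also act on steroid hormones and prostaglandins.

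RNA sequencing was available for 24 libraries in 8 groups of 3. MI cells are MCF-10A, a non-tumorigenic human mammary epithelial line, and MII cells are MCF-10AneoT, the same line carrying oncogenic HRAS. Both were grown as spheres under ultra-low attachment, without or with TGFβ at 2.5 ng/ml for 16 h. MDA-MB-231, a triple-negative breast cancer line with mesenchymal traits, was grown as a monolayer and compared either as wild type (WT) with SLUG KO cells, which were expanded from single-cell colonies after CRISPR/Cas9 editing of SNAI2, or as cells with scrambled siRNA (Csi) with cells given siRNA against SMAD2, SMAD3 and SMAD4 together (siSMAD). The labels call the replicates biological but do not say whether they were separate cultures, so the p-values measure the spread between these libraries. The Csi and siSMAD libraries carry another sequencing batch label than the other 18, and within the siSMAD group 2 libraries name another flow cell than the third.

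Assigned fragments per library ranged from 14124688 to 38406952. Replicates correlated at 0.984 or more in log2 counts scaled by library size (CPM, counts per 1e6 counts) in every group except WT, where the lowest pairwise correlation was 0.952 and WT replicate 2 stood apart from the other WT libraries. The fitted differences between SLUG KO and WT are therefore given with and without that library. Mitochondrial reads took 0.423% to 2.4% of the counts in the 18 libraries of the main batch and 3.81% to 6.02% in the Csi and siSMAD libraries. The 2.4% was that of WT replicate 2, against 0.812% and 0.656% in WT replicates 1 and 3. In the siSMAD libraries SMAD2 averaged 23.9 CPM against 90.5 in Csi, SMAD4 16.8 against 55.3 and SMAD3 165 against 266, and HRAS averaged 220 CPM in unstimulated MII against 40.7 in unstimulated MI. SNAI2 RNA was higher in the libraries labelled SLUG KO, at 57.7 to 64.2 CPM, than in WT, at 20.9 to 33.7 CPM, so the transcript level does not check the edit. The study's methods state that knockout clones were checked by ddPCR and immunoblotting. All 6 epithelial markers examined (EPCAM, CDH1, KRT5, KRT14, KRT17 and TP63) averaged at least 1 CPM in the MI groups and in stimulated MII, and 5 of 6 in unstimulated MII, where TP63 averaged 0.621. In WT and SLUG KO only 3 of 6 did, and KRT5 was at 0 in every library of both. Summed VIM, ZEB1 and CDH2 lay between 4.19 and 22.6 CPM in the spheres and between 635 and 1130 CPM in MDA-MB-231. VIM made up most of the sum in MDA-MB-231. CDH2 was not higher there, with group means of 1.18 to 2.28 CPM against 1.54 to 10.35 CPM in the spheres.

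The 3 AKR1C genes lie side by side on chromosome 10 of GRCh38. AKR1C1 (ENSG00000187134.14) spans chr10:4963253-4983283 on the plus strand, AKR1C2 (ENSG00000151632.17) chr10:4987400-5018031 on the minus strand and AKR1C3 (ENSG00000196139.14) chr10:5035354-5107686 on the plus strand. Over a coding sequence of 972 bases AKR1C1 and AKR1C2 were 98.0% identical, AKR1C1 and AKR1C3 91.5%, and AKR1C2 and AKR1C3 91.0%. Reads that map to more than 1 place were not counted, so part of each gene could not contribute: 13.6% of the distinct 100-base stretches of AKR1C1 transcripts and 20.1% of those of AKR1C2 occur in another gene, mostly in each other, against 2.0% for AKR1C3 and 1.57% for AKR1B10. For stretches of 50 bases, the read length in the labels, the shares were 24.9%, 36.0%, 5.23% and 14.5%. Counts of AKR1C1 and AKR1C2, and at the shorter length of AKR1B10, are for that reason less certain than those of AKR1C3, and sums over the family are given beside them. The other members lie elsewhere: NFE2L2 at chr2:177227595-177392697, NQO1 at chr16:69706996-69726668, GCLM at chr1:93885199-93909456, HMOX1 at chr22:35380361-35394214, TXNRD1 at chr12:104215779-104350307 and AKR1B10 at chr7:134527567-134541412. For NFE2L2 and NQO1, 21.9% and 19.4% of the exon bases overlap an exon of another gene, and reads there were left uncounted.

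The start regions of AKR1C1 and AKR1C2 are shown because these genes, almost identical at the start site, carried different fitted values in most comparisons. The RefSeq windows run from 250 bases before to 50 bases after the start (GRCh38.p14). Windows were matched for 7 of the 9 genes, all but AKR1B10 and HMOX1. In the AKR1C2 and AKR1C3 lines capitals mark bases that differ from the aligned AKR1C1 base or are inserted beside it, and unaligned ends are left in lower case. The AKR1C2 window (chr10:5003808-5004107, minus strand) was 98.6% identical to that of AKR1C1 (chr10:4963165-4963464, plus strand) over 292 aligned bases. The AKR1C3 window shown (chr10:5094164-5094463, plus strand) was 79.5% identical, and its other RefSeq start (chr10:5048531-5048830) 78.0%.
AKR1C1: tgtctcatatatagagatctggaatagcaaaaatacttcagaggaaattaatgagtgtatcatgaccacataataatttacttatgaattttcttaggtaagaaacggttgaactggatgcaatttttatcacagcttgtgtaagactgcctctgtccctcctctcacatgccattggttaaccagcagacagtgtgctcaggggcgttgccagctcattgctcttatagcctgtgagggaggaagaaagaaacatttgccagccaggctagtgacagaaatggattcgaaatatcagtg
AKR1C2: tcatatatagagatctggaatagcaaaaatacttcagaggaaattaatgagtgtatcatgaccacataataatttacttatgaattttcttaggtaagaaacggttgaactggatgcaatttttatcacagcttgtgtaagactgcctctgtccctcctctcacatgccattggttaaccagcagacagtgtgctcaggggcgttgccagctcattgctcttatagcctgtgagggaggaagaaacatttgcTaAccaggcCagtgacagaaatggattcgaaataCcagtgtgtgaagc
AKR1C3: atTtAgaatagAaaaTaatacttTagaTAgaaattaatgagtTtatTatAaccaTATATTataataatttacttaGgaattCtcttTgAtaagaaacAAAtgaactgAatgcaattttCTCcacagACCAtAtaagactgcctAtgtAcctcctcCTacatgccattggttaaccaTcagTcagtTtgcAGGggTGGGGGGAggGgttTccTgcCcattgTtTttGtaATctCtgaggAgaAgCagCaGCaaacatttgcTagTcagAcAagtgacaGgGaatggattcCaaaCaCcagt

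These 3 windows, and those of NFE2L2 and NQO1, held no match on either strand to TGACNNNGC, the core of the antioxidant response element, whose matches can lie further from the start than the window reaches. GCLM (chr1:93909381-93909680, minus strand) held 1 match, starting 34 bases before the start, and TXNRD1 held 2 in the window shown (chr12:104215529-104215828, plus strand) and 1 in the window of its other start. They are printed because they are the members with the element's letters, with the matches in capitals. The core was present in 13.35% of 35116 windows of the same length and in 11 of the 55 listed pathway genes with a window (20.0%). TGAGTCA, the AP-1 site that resembles the element, was present in 4.95% of windows and in none of the members'.
GCLM: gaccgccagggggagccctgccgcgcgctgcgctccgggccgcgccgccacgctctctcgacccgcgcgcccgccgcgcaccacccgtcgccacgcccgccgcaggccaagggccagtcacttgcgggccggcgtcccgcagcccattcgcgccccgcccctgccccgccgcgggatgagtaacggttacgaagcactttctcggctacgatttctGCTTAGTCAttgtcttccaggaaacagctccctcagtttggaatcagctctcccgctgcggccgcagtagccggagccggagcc
TXNRD1: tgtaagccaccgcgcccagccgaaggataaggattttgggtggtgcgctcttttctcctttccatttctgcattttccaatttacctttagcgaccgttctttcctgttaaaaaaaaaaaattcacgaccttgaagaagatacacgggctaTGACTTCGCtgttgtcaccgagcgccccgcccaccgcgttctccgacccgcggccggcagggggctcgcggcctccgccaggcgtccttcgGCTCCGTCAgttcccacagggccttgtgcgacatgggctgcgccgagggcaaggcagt

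**Figure D1:**
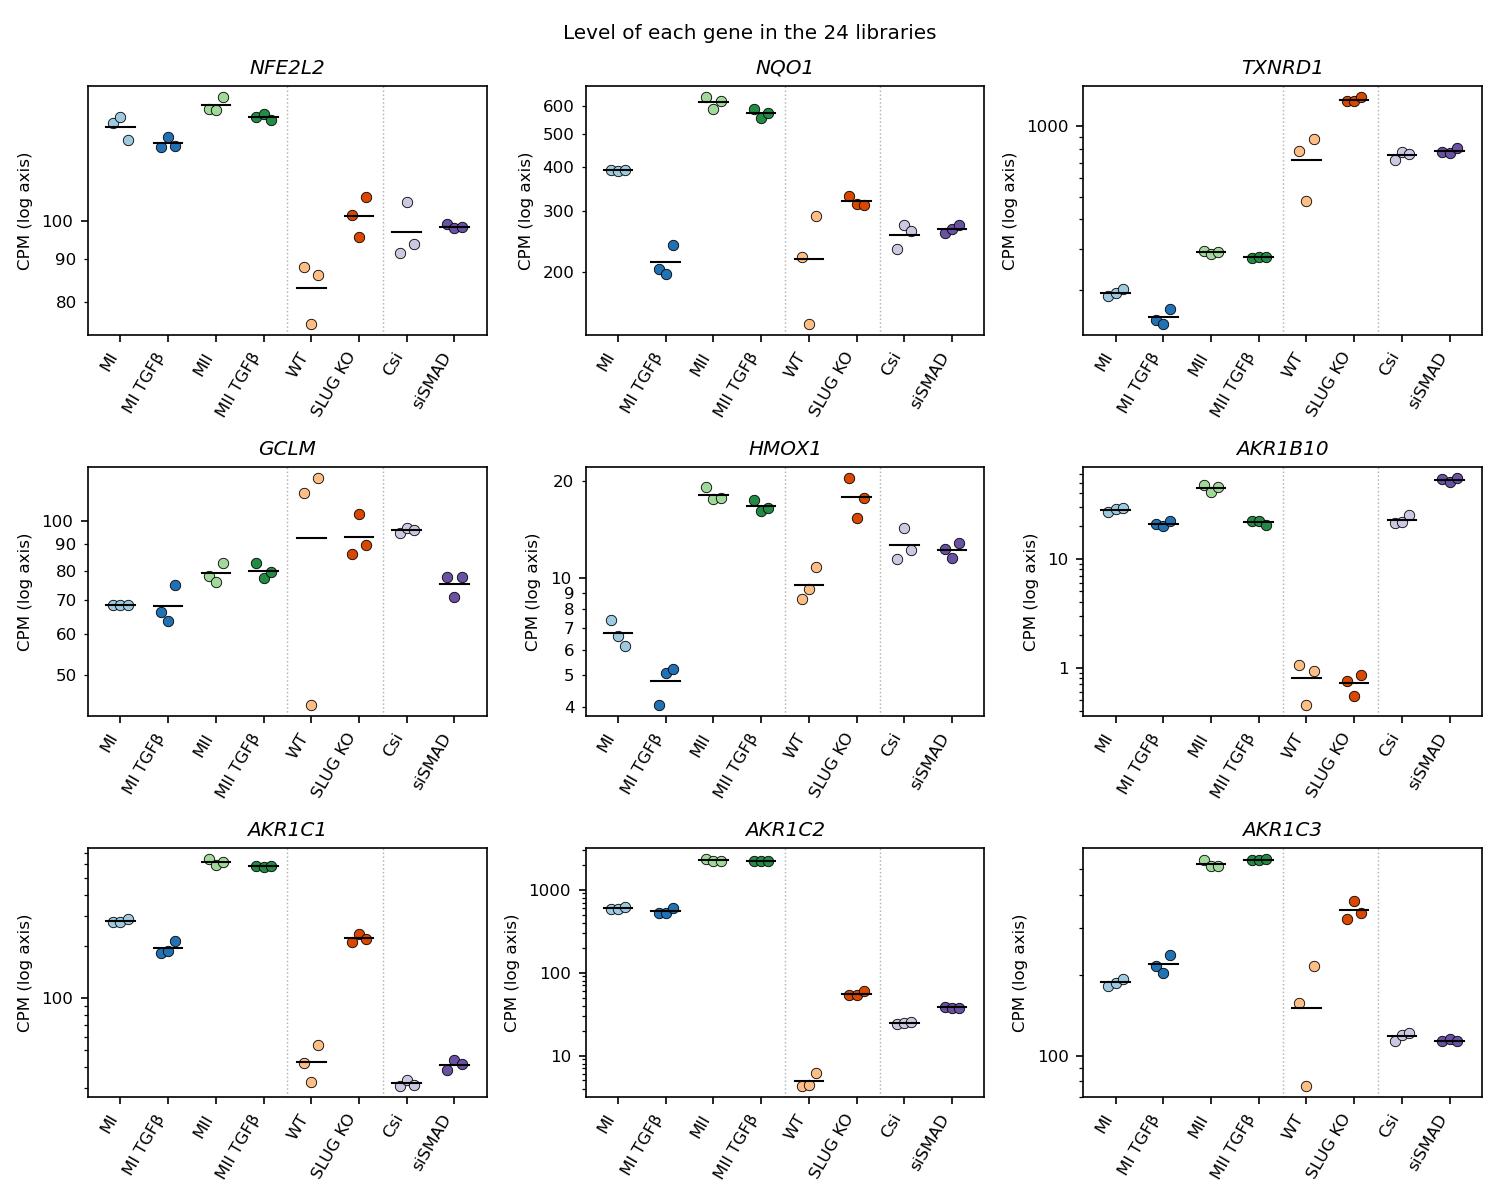
CPM of each of the 9 genes in every library on a log axis, with points for the 3 libraries of a group and bars for their mean. AKR1C2 runs from 4.32 CPM in WT to 2322 CPM in MII, whereas NFE2L2 stays between 75.3 and 141 CPM, and WT replicate 2 is the lowest WT point for AKR1C3, NQO1, GCLM and TXNRD1.

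NFE2L2 itself varied little. Group means ran from 83.3 CPM in WT to 138 CPM in unstimulated MII, a span of 1.66-fold, and all 12 sphere libraries (123 to 141 CPM) lay above all 12 MDA-MB-231 libraries (75.3 to 106.9 CPM). Within each cell system neighbouring groups mostly overlapped. Most of the other transcripts spread further, by 457-fold between the highest and lowest group mean for AKR1C2, 73.5-fold for AKR1B10 and 19.2-fold for AKR1C1. For TXNRD1, the cytosolic thioredoxin reductase, the span was 8.56-fold, and for GCLM, the modifier subunit of glutamate-cysteine ligase, 1.41-fold.

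The order of the groups differed from gene to gene. AKR1C1, AKR1C2 and NQO1, a quinone reductase, ran highest in unstimulated MII, then stimulated MII, then unstimulated MI, with no overlap between these 3 groups. AKR1C3, which also makes testosterone from androstenedione, was highest in both MII groups, which overlapped each other, and SLUG KO came next. TXNRD1 had the reverse arrangement of cell systems, with SLUG KO at 1283 to 1333 CPM, the other MDA-MB-231 libraries at 481 to 882 CPM and the spheres at 143 to 291 CPM. HMOX1, the inducible haem oxygenase, was low throughout, from 4.06 to 5.23 CPM in stimulated MI to 17.6 to 19.1 CPM in unstimulated MII and 15.3 to 20.3 CPM in SLUG KO. GCLM groups overlapped along most of the order, with means between 68.3 CPM in stimulated MI and 96.0 CPM in Csi. CPM does not take gene length into account. As CPM per kilobase of annotated exon, unstimulated MII had 350 for AKR1C2, 207 for NQO1, 134 for AKR1C3 and 70.4 for AKR1C1. WT had 106.9 for TXNRD1, 73.1 for NQO1, 38.4 for AKR1C3 and 0.765 for AKR1C2. The length used counts every annotated exon base (8765 for AKR1C1, 6461 for AKR1C2 and 3911 for AKR1C3), not the transcript made. Shared stretches were also left uncounted, so these values give no firm order between genes.

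AKR1B10, a reductase of retinaldehyde and other aldehydes, separated the MDA-MB-231 controls from each other. It was measured at 1.05, 0.456 and 0.925 CPM in the 3 WT libraries and at 21.3, 21.6 and 25.05 CPM in the 3 Csi libraries. AKR1C2 likewise lay at 4.32 to 6.15 CPM in WT and 24.1 to 25.1 CPM in Csi, and CDH1, the epithelial cadherin, averaged 1.23 CPM in WT and 17.8 CPM in Csi. NFE2L2 (75.3 to 88.25 CPM in WT and 91.6 to 105.6 CPM in Csi) and HMOX1 (8.60 to 10.8 and 11.4 to 14.3 CPM) did not overlap either. NQO1, AKR1C1, AKR1C3, GCLM and TXNRD1 overlapped between the same groups. For AKR1C3, GCLM and TXNRD1 the overlap came only from WT replicate 2, at 77.1, 43.7 and 481 CPM. The batch, the transfection and the stock of cells cannot be told apart here, so no difference between WT and Csi was tested.

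Unstimulated MII spheres carried more of every member than unstimulated MI spheres. AKR1C2, AKR1C3 and HMOX1 had the largest fitted differences of the 9. AKR1C2 measured 586, 586 and 616 CPM in MI and 2322, 2227 and 2230 CPM in MII, AKR1C1 276, 276 and 290 CPM against 640, 594 and 618 CPM, and AKR1C3 183, 187 and 194 CPM against 541, 512 and 513 CPM. None of these groups overlapped. The share of all genes whose libraries separate in this way was not computed, so lack of overlap is a description throughout. The fitted log2 differences were 1.93 ± 0.035 (SE; 3.82-fold) for AKR1C2, 1.49 ± 0.037 (2.80-fold) for AKR1C3 and 1.15 ± 0.036 (2.22-fold) for AKR1C1. HMOX1 was at 7.44, 6.64 and 6.18 CPM in MI and 19.1, 17.6 and 17.6 CPM in MII, a log2 difference of 1.42 ± 0.099. Smaller differences were fitted for AKR1B10 (log2 0.67 ± 0.064), NQO1 (0.66 ± 0.035), TXNRD1 (0.58 ± 0.037), GCLM (0.21 ± 0.048) and NFE2L2 (0.09 ± 0.040), and the MII libraries lay above the MI libraries without overlap for all 5. A gene is counted as called where its edgeR quasi-likelihood p, adjusted by Benjamini-Hochberg over all genes tested, was under 0.05. All 9 members were called higher, where 31.7% of the 17862 genes tested were called higher and 32.5% lower. The call for NFE2L2 was absent in 9 of 14 alternative fits, including all that left out 1 library except the fit without MII replicate 2.

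The unstimulated libraries serve both in this comparison and in the TGFβ responses, which share them.

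The other pathway genes did not share one direction between the lines. Of 66 tested, 25 were higher (37.9%) and 30 lower (45.5%) in MII, beside 31.7% and 32.5% of all genes. Their median log2 difference was -0.03 against 0.02 over all genes. Among the 15 glutathione genes 8 rose and 5 fell, and among the 6 of NADPH supply 4 rose and 1 fell, whereas 8 of 13 thioredoxin and peroxiredoxin genes, 8 of 14 carbonyl and quinone genes and 4 of 8 haem and iron genes fell. SLC7A11, the cystine transporter that feeds glutathione synthesis, averaged 141 CPM in MII and 37.8 CPM in MI (log2 1.91 ± 0.048, edgeR adjusted p = 1.97e-38). ABCC3, an exporter of glutathione and glucuronide conjugates, and SQSTM1, the p62 protein that binds KEAP1, rose by 1.10 ± 0.034 and 1.11 ± 0.035 on the log2 scale (edgeR adjusted p = 4.42e-34 and 4.78e-34). ALDH3A1, an aldehyde dehydrogenase, averaged 262 CPM in MI and 31.8 CPM in MII (log2 -3.03 ± 0.045, edgeR adjusted p = 1.49e-49). AKR1B1, the aldose reductase encoded beside AKR1B10, differed by -1.81 ± 0.045 and the glutathione transferase GSTP1 by -0.76 ± 0.035 (edgeR adjusted p = 9.43e-39 and 2.52e-26). Of the regulators, BACH1 was lower (log2 -0.58 ± 0.044, edgeR adjusted p = 3.04e-17) and KEAP1 slightly lower (-0.15 ± 0.049, edgeR adjusted p = 0.00723), a call that is lost without MII control replicate 3. GCLC, the catalytic partner of GCLM, rose by 0.32 ± 0.038 (edgeR adjusted p = 1.96e-10). SRXN1, which repairs peroxiredoxins, averaged 0.344 and 0.753 CPM, and 90.7% of its exon bases overlap another gene, so its differences are uncertain throughout. The lines also differed in cell markers. The 6 epithelial markers summed to 1997 to 2050 CPM in MI and 1093 to 1143 CPM in MII, but they did not share one direction. KRT17 averaged 1281 CPM in MI and 330 CPM in MII, and KRT5 and TP63 were also lower in MII. EPCAM (62.1 CPM in MI and 187 CPM in MII), CDH1 (527 and 565.5 CPM) and KRT14 (1.56 and 8.41 CPM) were higher. Markers of blood, endothelial and stromal cells (PTPRC, PECAM1, DCN and LUM) summed to 22.0 to 23.5 CPM in MI, where 3 of 4 averaged at least 1 CPM. In MII they summed to 102.9 to 106.2 CPM, and PECAM1 alone averaged at least 1 CPM. PTPRC was at 0.199 CPM or less in both lines. The part of these markers in the difference was not tested. In bulk RNA, fewer cells of a type and less RNA per cell cannot be told apart.

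**Figure D2:**
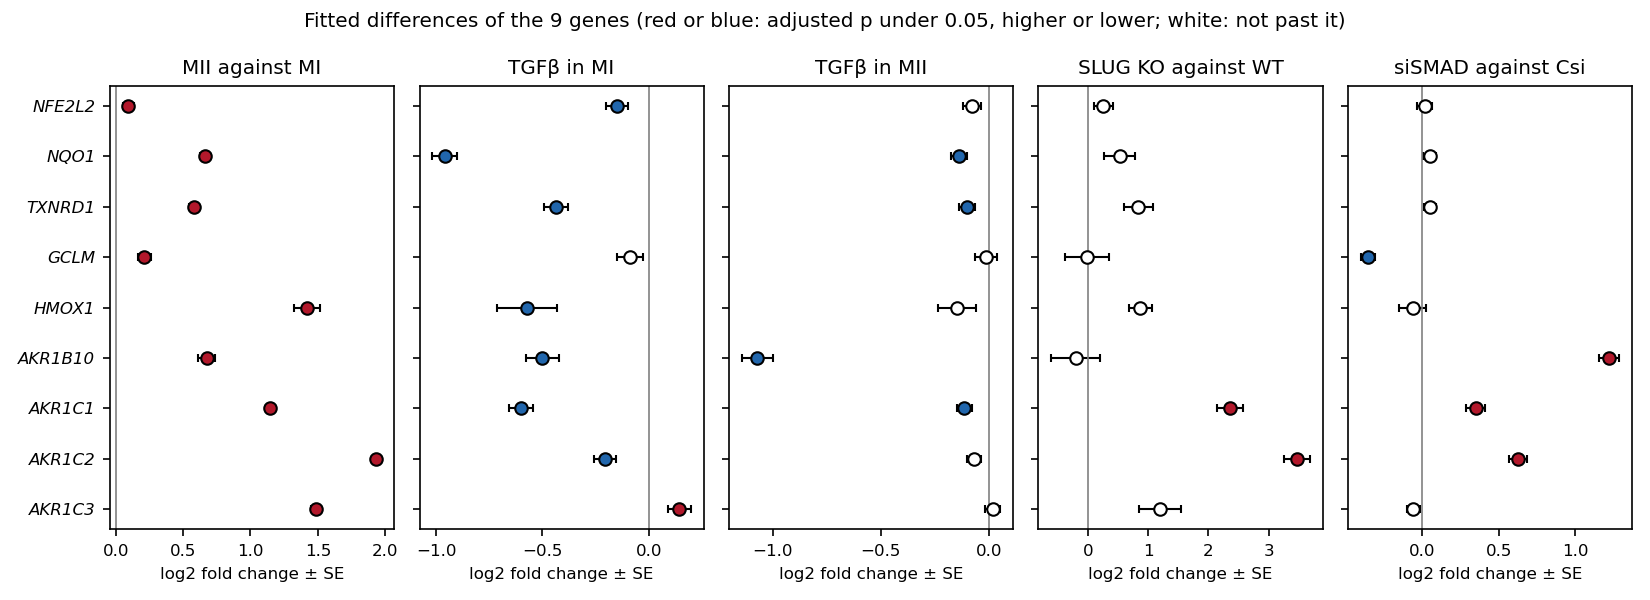
Fitted log2 fold change (points) with its standard error (bars) for the 9 genes in 5 comparisons, each panel on its own scale. Every point is right of 0 for MII against MI, 7 of 9 are blue for TGFβ in MI against 4 of 9 in MII, and AKR1C1 and AKR1C2 are red in both SLUG KO and siSMAD.

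Most members were lower in MI spheres after TGFβ. NQO1 fell furthest, from 393, 391 and 393 CPM to 204, 198 and 239 CPM, a log2 change of -0.96 ± 0.057. AKR1C1 fell from 276, 276 and 290 CPM to 183, 188 and 216 CPM (log2 -0.60 ± 0.056). HMOX1 went from 6.18 to 7.44 CPM down to 4.06 to 5.23 CPM (-0.57 ± 0.14). AKR1B10 changed by -0.50 ± 0.076 and TXNRD1 by -0.44 ± 0.055, and for these 5 genes the stimulated and unstimulated libraries did not overlap. AKR1C2 (-0.21 ± 0.053) and NFE2L2 (-0.15 ± 0.052) were called lower although their libraries overlapped. AKR1C3 was the exception within its family, at 183, 187 and 194 CPM unstimulated and 216, 204 and 239 CPM stimulated (log2 0.14 ± 0.054). GCLM did not pass, at -0.09 ± 0.060. Thus 7 members were called lower and 1 higher, where 27.4% of 16863 genes were called lower and 28.7% higher. The call for NFE2L2 was absent in 6 of 14 alternative fits, among them those without unstimulated replicates 1 or 2 or stimulated replicate 1, that for AKR1C3 in 5 of 13, among them those without unstimulated replicates 1 or 2, and that for AKR1C2 in 1 of 13. Replicate 3 of the stimulated group was the highest of its 3 libraries for NQO1, AKR1C1, AKR1C2, AKR1C3, GCLM and TXNRD1, and without it GCLM was called lower at -0.14 and AKR1C3 was not called.

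In the wider pathway MI genes moved in both directions. Of 66 genes tested 25 rose (37.9%) and 22 fell (33.3%), beside 28.7% and 27.4% of all genes. In the list of NRF2 control 7 of 10 fell and 1 rose (median log2 change -0.28), and 4 of 6 NADPH genes fell, whereas 10 of 13 thioredoxin and peroxiredoxin genes rose (median 0.37, against -0.02 over all genes). The other lists were mixed, with 6 of 15 glutathione genes higher and 5 lower, 4 of 8 haem and iron genes higher and 2 lower, and 3 of 14 carbonyl and quinone genes higher and 2 lower, and the lists were not tested against each other. ALDH3A1 fell from 262 to 38.4 CPM on average (log2 -2.85 ± 0.056, edgeR adjusted p = 1.27e-19), and GPX2, a glutathione peroxidase of epithelia, from 173 to 31.4 CPM (-2.54 ± 0.069, edgeR adjusted p = 1.66e-17). SQSTM1 fell from 583 to 212 CPM (-1.54 ± 0.050, edgeR adjusted p = 3.7e-16) and GCLC from 156 to 73.9 CPM (-1.16 ± 0.059, edgeR adjusted p = 6.74e-13). GCLC and GCLM, the subunits of one enzyme, thus stood at -1.16 and -0.09. The peroxiredoxins PRDX2, PRDX4 and PRDX5, which remove peroxides, rose by 0.93 ± 0.051, 1.03 ± 0.068 and 0.83 ± 0.052 (edgeR adjusted p = 2.56e-12, 5.07e-11 and 2.37e-11). BACH1 fell by 0.29 ± 0.052 on the log2 scale (edgeR adjusted p = 8.35e-05). KEAP1, at 0.05 ± 0.055, and SLC7A11, at -0.14 ± 0.068, did not pass (edgeR adjusted p = 0.436 and 0.086). SRXN1 averaged 0.753 and 0.274 CPM (log2 -1.53 ± 0.47, edgeR adjusted p = 0.00929), a call absent with DESeq2 and without stimulated replicate 1. Summed epithelial markers were also higher after TGFβ, at 3681 to 3991 CPM against 1997 to 2050 CPM, as were the 3 mesenchymal ones, at 14.0 to 15.7 CPM against 4.19 to 4.86 CPM. Their part in these changes was not tested.

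In MII spheres 4 members were called lower after TGFβ, AKR1B10 by the most. It fell from 47.6, 41.0 and 45.7 CPM to 22.2, 22.4 and 20.4 CPM, a log2 change of -1.07 ± 0.071 (2.10-fold lower), without overlap. The remaining calls were small: NQO1 fell from 590 to 636 CPM to 556 to 589 CPM (-0.14 ± 0.035), AKR1C1 from 594 to 640 CPM to 581 to 588 CPM (-0.11 ± 0.034) and TXNRD1 from 284 to 291 CPM to 273 to 276 CPM (-0.10 ± 0.036). HMOX1 (-0.15 ± 0.087), NFE2L2 (-0.08 ± 0.041), AKR1C2 (-0.07 ± 0.032), GCLM (-0.02 ± 0.051) and AKR1C3 (0.02 ± 0.034) did not pass. With 4 members lower and 0 higher, the shares over 16396 genes were 27.6% lower and 29.9% higher. The call for TXNRD1 was absent in 7 of 14 alternative fits, that for AKR1C1 in 4 of 13 and that for NQO1 in 1 of 14. AKR1C1 lost its call without unstimulated MII replicate 1, and TXNRD1 without unstimulated replicates 1 or 3 or stimulated replicate 1.

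Of 63 other pathway genes tested in MII, 27 rose (42.9%) and 18 fell (28.6%), beside 29.9% and 27.6% of all genes. Among the 15 of glutathione 8 rose and 7 fell. SLC3A2, the heavy chain that SLC7A11 needs at the membrane, rose from 343 to 545 CPM (log2 0.63 ± 0.034, edgeR adjusted p = 3.35e-22), whereas SLC7A11 fell from 141 to 90.5 CPM (-0.68 ± 0.045, edgeR adjusted p = 1.33e-18). ABCC3 fell by 0.80 ± 0.034, the small MAF gene MAFF by 0.97 ± 0.060 and GCLC by 0.63 ± 0.040 on the log2 scale (edgeR adjusted p = 1.04e-26, 6.94e-20 and 2.34e-19). PRDX4 and PRDX1 rose by 0.81 ± 0.050 and 0.54 ± 0.035 (edgeR adjusted p = 8.54e-20 and 7.51e-19), within a list in which 8 of 12 rose and 1 fell. KEAP1 (-0.05 ± 0.053) and BACH1 (0.03 ± 0.051) did not pass (edgeR adjusted p = 0.384 and 0.693). SRXN1 was below the count filter in this comparison. Epithelial markers summed to 1093 to 1143 CPM without and 2405 to 2533 CPM with TGFβ, and mesenchymal ones to 8.80 to 11.1 and 20.9 to 22.6 CPM, so the markers moved with TGFβ in both lines. Their part here was not tested either.

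**Figure D3:**
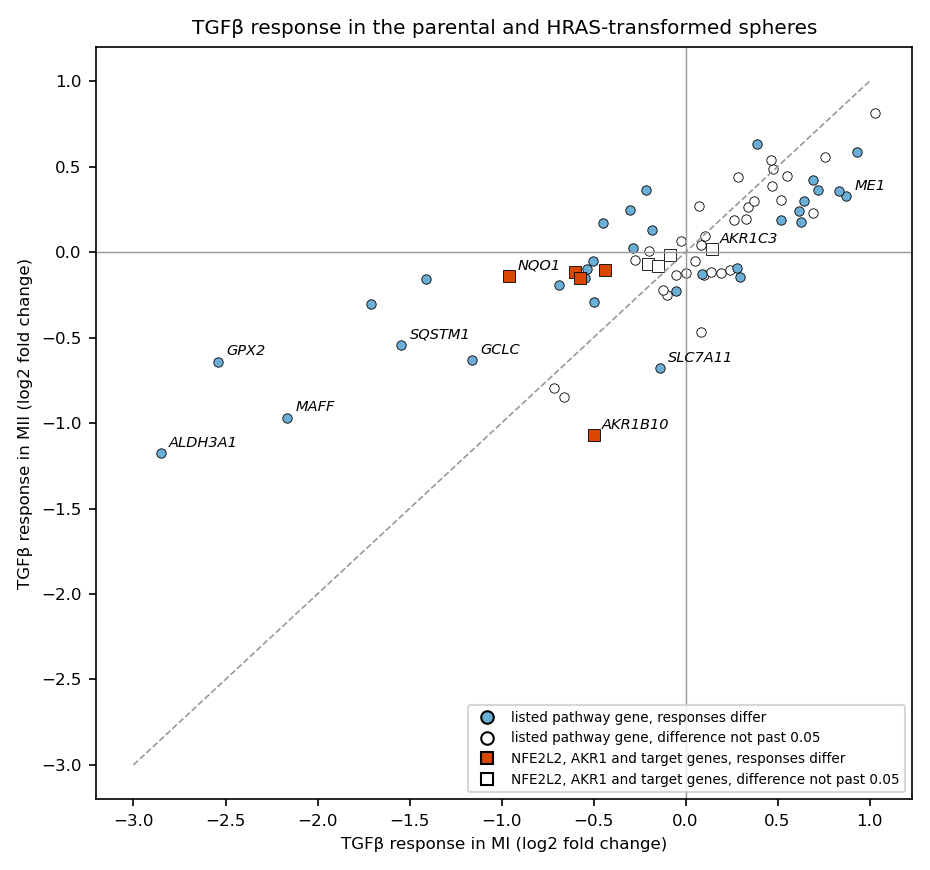
Log2 fold change after TGFβ in MI (horizontal axis) and in MII (vertical axis), 1 point per gene, with squares for the 9 members and circles for listed pathway genes. Filled points passed the test of the difference between the lines, and the dashed line marks equal responses, with NQO1 far to its left at -0.96 and -0.14 and AKR1B10 below it at -0.50 and -1.07.

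The difference between the 2 responses was fitted as an interaction over the 12 sphere libraries. It was 0.83 ± 0.070 for NQO1, 0.50 ± 0.068 for AKR1C1, 0.43 ± 0.16 for HMOX1 and 0.34 ± 0.066 for TXNRD1, where a positive value means a less negative or more positive response in MII, and -0.56 ± 0.11 for AKR1B10. AKR1C2 (0.14 ± 0.063), AKR1C3 (-0.12 ± 0.066), NFE2L2 (0.08 ± 0.066) and GCLM (0.08 ± 0.080) did not pass. Thus 4 members were called positive and 1 negative, beside 12.6% and 9.75% of 18591 genes. The call for HMOX1 was absent in 15 of 19 alternative fits, and of those that left out 1 library only the fits without stimulated MI replicate 3 or unstimulated MII replicate 1 kept it. AKR1C2 was called at 0.17 without stimulated MI replicate 3 and AKR1C3 at -0.21 without stimulated MI replicate 2. Of the 66 listed genes tested, 19 were called positive (28.8%) and 14 negative (21.2%), beside the same 12.6% and 9.75% of all genes. All 6 called genes of NRF2 control were positive, among them SQSTM1 (1.01 ± 0.065, edgeR adjusted p = 1.83e-15) and BACH1 (0.32 ± 0.072, edgeR adjusted p = 0.000772), and KEAP1 did not pass (-0.10 ± 0.080, edgeR adjusted p = 0.455). GPX2 (1.91 ± 0.081) and ALDH3A1 (1.69 ± 0.090) had the positive differences with the smallest adjusted p of the lists (edgeR adjusted p = 9.12e-21 and 9.73e-18), and GCLC was also positive at 0.54 ± 0.072 (edgeR adjusted p = 2.32e-07). On the negative side stood PRDX5 (-0.47 ± 0.070), SLC7A11 (-0.53 ± 0.082) and ME1, the cytosolic malic enzyme (-0.54 ± 0.092), with edgeR adjusted p = 1.73e-06, 3.35e-06 and 2.04e-05.

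In SLUG KO cells the AKR1C genes stood far above WT. AKR1C2 measured 4.32, 4.35 and 6.15 CPM in WT and 53.9, 53.0 and 59.6 CPM in SLUG KO, and AKR1C1 42.3, 32.9 and 53.6 CPM against 211, 237 and 221 CPM. Neither pair of groups overlapped, and the log2 differences were 3.47 ± 0.21 (11.1-fold) and 2.36 ± 0.22 (5.12-fold). AKR1C3 lay at 158, 77.1 and 216 CPM in WT and at 326, 380 and 343 CPM in SLUG KO, also without overlap, but its difference of 1.197 ± 0.35 did not pass over all genes, although it was called with DESeq2 and without a count filter. No call was made either for HMOX1 (0.87 ± 0.19), which DESeq2 called, TXNRD1 (0.84 ± 0.24), NQO1 (0.53 ± 0.26) or NFE2L2 (0.26 ± 0.16). Every SLUG KO library was above every WT library for these 4, which is a description and not a test. TXNRD1 measured 788, 481 and 882 CPM in WT and 1283, 1287 and 1333 CPM in SLUG KO. GCLM (-0.02 ± 0.36) and AKR1B10 (-0.20 ± 0.40) overlapped. With 2 members called higher and 0 lower, 1.45% of 17428 genes were called higher and 1.89% lower.

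These counts turned on WT replicate 2, which held 77.1 CPM of AKR1C3, 43.7 of GCLM, 142 of NQO1 and 481 of TXNRD1 where the other WT libraries held 158 and 216, 113 and 121.2, 220 and 290, and 788 and 882. Without it 6 members were called higher and 1 lower, and the share of all genes called rose to 16.8% higher and 14.4% lower. The log2 differences were then 3.40 for AKR1C2, 2.21 for AKR1C1, 0.90 for AKR1C3, 0.87 for HMOX1, 0.63 for TXNRD1, 0.31 for NQO1 and -0.34 for GCLM, and NFE2L2 (0.21) and AKR1B10 (-0.47) were not called. Of the 64 listed genes tested 1 rose and 0 fell with all libraries, beside 1.45% and 1.89% of all genes. The gene that rose was NFE2L3, a relative of NRF2, at 106.3 CPM in WT and 209 CPM in SLUG KO (log2 0.95 ± 0.19, edgeR adjusted p = 0.0456). Without WT replicate 2, 33 were called higher, NFE2L3 at 0.82 ± 0.088 among them (edgeR adjusted p = 3.85e-06), and 3 lower (TXNIP, ALDH3A1 and CBR3). In the fit with all libraries KEAP1 (0.18 ± 0.19), BACH1 (0.41 ± 0.23), GCLC (0.52 ± 0.27) and SLC7A11 (0.40 ± 0.32) did not pass, with edgeR adjusted p = 0.632, 0.375, 0.332 and 0.536, and SRXN1 was below the count filter. Without WT replicate 2, KEAP1 (0.35 ± 0.096) and GCLC (0.29 ± 0.10) were called higher (edgeR adjusted p = 0.011 and 0.0348), and BACH1 (0.22 ± 0.085) and SLC7A11 (0.11 ± 0.099) did not pass (edgeR adjusted p = 0.0654 and 0.45). Epithelial markers summed to 13.8 to 24.7 CPM in WT and 23.4 to 25.02 CPM in SLUG KO, with KRT5 at 0 in both and KRT14 at 0 in SLUG KO, and mesenchymal markers to 635 to 1049 and 793 to 880 CPM. The study's methods describe clones grown from single cells and do not say how many were sequenced, so the edit and the choice of clone cannot be told apart.

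In siSMAD cells AKR1B10, AKR1C2 and AKR1C1 were higher than in Csi. AKR1B10 measured 21.3, 21.6 and 25.05 CPM in Csi and 54.2, 50.1 and 54.7 CPM in siSMAD (log2 1.22 ± 0.064, 2.33-fold). AKR1C2 went from 24.1, 24.8 and 25.1 CPM to 38.8, 37.8 and 37.9 CPM (0.62 ± 0.060) and AKR1C1 from 31.1, 33.7 and 31.6 CPM to 38.2, 43.8 and 41.4 CPM (0.35 ± 0.062). GCLM fell from 94.9, 97.0 and 96.1 CPM to 77.7, 70.8 and 77.7 CPM (-0.35 ± 0.046). None of these 4 genes overlapped between the groups. AKR1C3 (-0.06 ± 0.042), HMOX1 (-0.06 ± 0.090), TXNRD1 (0.05 ± 0.039), NQO1 (0.05 ± 0.045) and NFE2L2 (0.02 ± 0.048) overlapped and did not pass. Beside the 3 members called higher and 1 lower, 16.3% of 17696 genes were called higher and 19.7% lower. With flow cell as a term, the siSMAD libraries that name another flow cell are absorbed by that term. The fit then sets only the remaining siSMAD library against Csi, so its calls are not given. Its log2 values were 1.28 for AKR1B10, 0.63 for AKR1C2, 0.37 for AKR1C1 and -0.30 for GCLM.

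Of 67 listed genes tested in siSMAD, 16 rose (23.9%) and 16 fell (23.9%), beside 16.3% and 19.7% of all genes. TXNIP, which binds and restrains thioredoxin, rose from 352 to 622 CPM (log2 0.81 ± 0.038, edgeR adjusted p = 7.26e-17) and ABCC3 from 248 to 348 CPM (0.48 ± 0.048, edgeR adjusted p = 8.92e-10). PTGR1, a reductase of prostaglandins and alkenals, fell by 0.46 ± 0.061, BACH1 by 0.33 ± 0.048 and SRXN1 by 0.64 ± 0.12 on the log2 scale (edgeR adjusted p = 2.74e-07, 2.22e-06 and 4.39e-05). SLC7A11 fell by 0.17 ± 0.051 (edgeR adjusted p = 0.00903), a call absent without siSMAD replicate 2. With flow cell as a term its log2 change was -0.12. GCLC (0.04 ± 0.070) and KEAP1 (0.03 ± 0.043) did not pass (edgeR adjusted p = 0.719 and 0.646). The 6 epithelial markers summed to 41.2 to 42.9 CPM in Csi and 34.3 to 35.9 CPM in siSMAD, and their part in these differences was not tested.

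**Figure D4:**
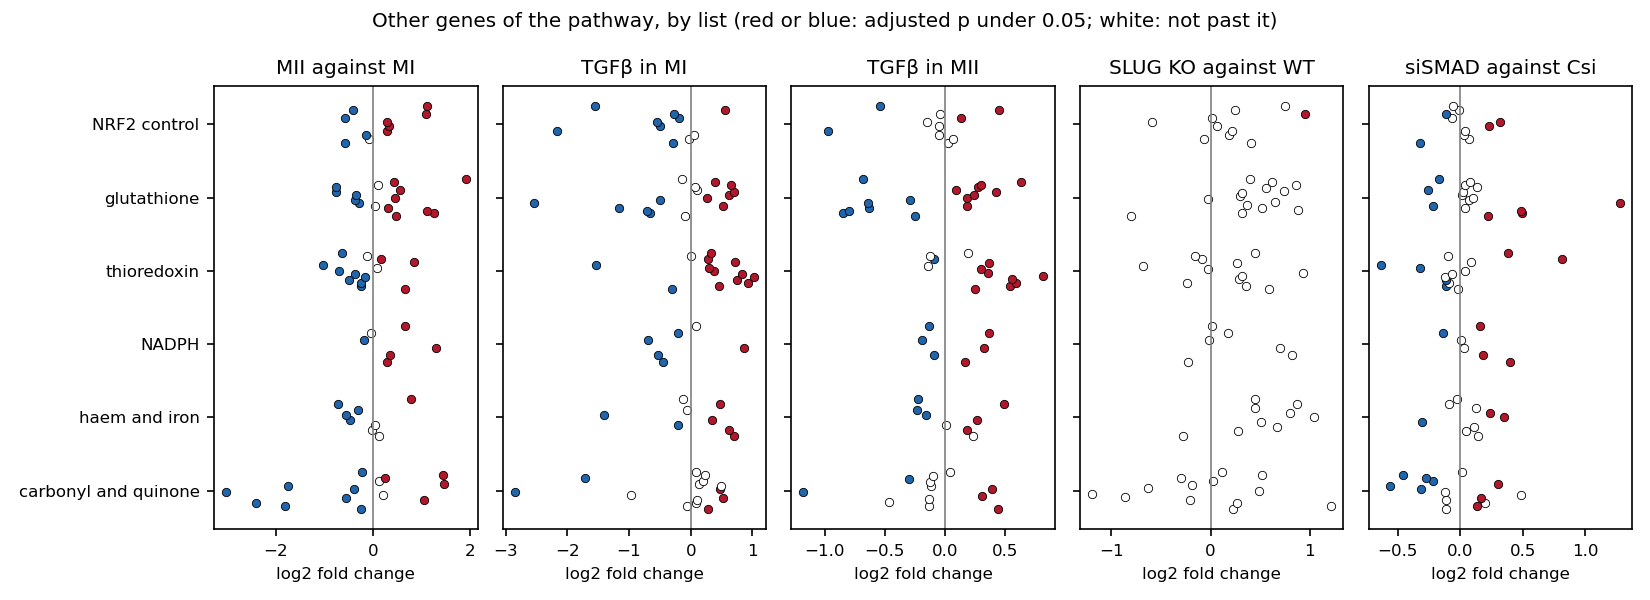
Log2 fold change of every listed pathway gene that was tested, by list and comparison, each panel on its own scale, with red and blue for genes past the threshold. In TGFβ-treated MI the NRF2 control list is mostly blue (7 of 10) and the thioredoxin list mostly red (10 of 13), and in SLUG KO against WT 1 point is coloured.

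AKR1C1 and AKR1C2 did not move in a fixed proportion. The ratio of AKR1C2 to AKR1C1 counts was 2.12 in all 3 unstimulated MI libraries, 2.76 to 2.86 after TGFβ, 3.61 to 3.75 in unstimulated MII and 3.74 to 3.83 in stimulated MII. In MDA-MB-231 the ratio was 0.102 to 0.132 in WT and 0.224 to 0.269 in SLUG KO. It was 0.736 to 0.794 in Csi and 0.864 to 1.02 in siSMAD. These ratios do not take gene length into account. Per kilobase of exon, AKR1C1 was above AKR1C2 in WT (4.90 and 0.765) and SLUG KO (25.5 and 8.59). It was below AKR1C2 in Csi (3.66 and 3.82) and siSMAD (4.69 and 5.91). The order in Csi and siSMAD depends on the annotated exon lengths, 8765 bases for AKR1C1 and 6461 for AKR1C2. In Csi the counts themselves were higher for AKR1C1, so which gene was higher there is not settled. Reads shared between the genes were left uncounted, so the sum of AKR1C1, AKR1C2 and AKR1C3 still depends on their mix. It averaged 1065 CPM in unstimulated MI and 963 CPM in stimulated MI, 3399 and 3330 CPM in MII, 198 CPM in WT, 628 CPM in SLUG KO, 175 CPM in Csi and 193 CPM in siSMAD. Fitted as 1 gene together with AKR1C4, the sum differed by 1.69 ± 0.035 on the log2 scale between MII and MI, by 1.64 ± 0.31 between SLUG KO and WT (1.38 ± 0.12 without WT replicate 2), by -0.23 ± 0.054 after TGFβ in MI and by 0.14 ± 0.040 in siSMAD, all called. After TGFβ in MII it was -0.06 ± 0.032 and not called. The difference between the responses of MII and MI, fitted as an interaction, was 0.17 ± 0.063 for the sum and called positive.

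**Figure D5:**
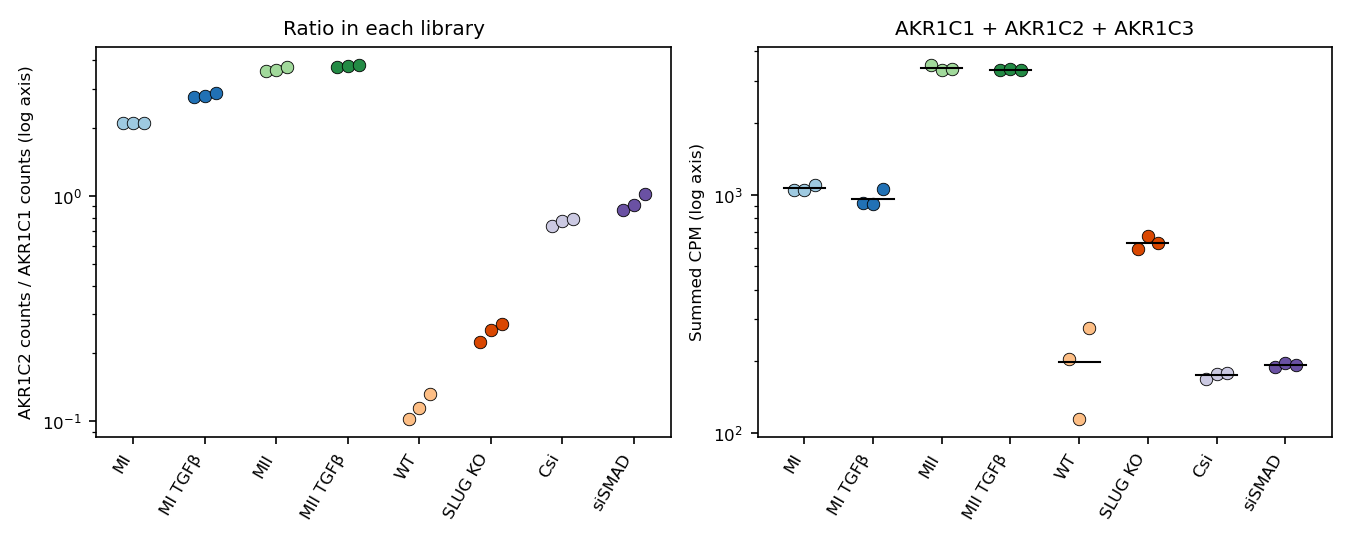
Left, counts of AKR1C2 divided by counts of AKR1C1 in each library, ordered within a group by value. Right, summed CPM of AKR1C1, AKR1C2 and AKR1C3 per library with the group mean as a bar, both on log axes. The ratio is above 2 in every sphere library and at or below 1.02 in every MDA-MB-231 library, and the sum in SLUG KO (591 to 670 CPM) lies above that in WT (114 to 276 CPM).

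The genes around the AKR1C cluster were examined by position alone. Of 31 other genes within 500000 bases of it, most were too low to test. Among those tested, 10 of 13 were higher in MII than in MI and 3 lower, beside 31.7% and 32.5% of all genes. After TGFβ 3 of 12 were higher and 2 lower in MI, beside 28.7% and 27.4% of all genes. In MII 2 of 13 were higher and 3 lower, beside 29.9% and 27.6%. In the interaction 0 of 14 were positive and 4 negative, beside 12.6% and 9.75%. In SLUG KO 1 of 8 was higher (TUBAL3, log2 2.25) and 0 lower, beside 1.45% and 1.89% of all genes. Without WT replicate 2, 3 of 11 were higher (TUBAL3 at 2.18) and 4 lower, beside 16.8% and 14.4%. In siSMAD 0 of 8 were higher and 2 lower, beside 16.3% and 19.7%. The counts include ENSG00000224251, which lies inside AKR1C2 on the opposite strand, and counting did not use strand. It averaged 4.89 CPM in MI and 16.0 CPM in MII (log2 1.70). The aldo-keto reductase AKR1E2 averaged 4.64 CPM in MI and 9.49 CPM in MII (log2 1.06) and 6.58 and 8.03 CPM in WT and SLUG KO (0.26, not called, and 0.48, called higher, without WT replicate 2). AKR1C4 of the same cluster averaged 0.237 CPM or less in every group. The long non-coding RNA MANCR averaged 0.613 CPM in MI, 6.61 CPM in MII and 64.6 CPM in WT.

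Across the 24 libraries the log2 levels of the members followed several patterns. Since 12 libraries are spheres and 12 are MDA-MB-231, these correlations largely describe that split and are given without a test. NFE2L2 correlated with AKR1C2 at r = 0.97 and with AKR1C1 at 0.86, but with TXNRD1 at -0.75 and with HMOX1 at -0.004. AKR1C1 and AKR1C3 stood at 0.91, and AKR1B10 and AKR1C3 at 0.03. Among 15148 genes with a mean of at least 1 CPM, the nearest to NFE2L2 were GOLPH3L, HBP1 and KLHL24 (r = 0.98 each), and to AKR1C1 PPP1R9A (0.99), CTSH (0.98) and EXOC6 (0.97). The nearest to AKR1C2 were MFSD9, PSAP and AUH (0.99, 0.99 and 0.98), to AKR1C3 INPP4B, PRKAA1 and ENPP4 (0.96 each), and to AKR1B10 EFCAB14 and NR4A2 (0.97 and 0.96). NQO1 was closest to PTPRR (0.96), the unnamed gene ENSG00000273132 (0.95) and PLA2R1 (0.94), GCLM to PPP2R3C (0.92), ZCCHC9 (0.88) and CEP57 (0.88), and HMOX1 to GULP1 (0.94), TFPI (0.92) and LNX1 (0.92). TXNRD1 was closest to NFE2L3 (0.99), HS3ST1 (0.99) and MCTP1 (0.98). No member was among the 3 nearest genes of another member.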

How the data were processed

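The 24 RNA-seq libraries were analysed, and the 16 ATAC-seq samples of the series were not analysed here. According to the study's methods and the file headers, reads were trimmed (Trimmomatic) and placed on GRCh38 by STAR before the authors deposited raw counts per gene from featureCounts (Subread v2.0.0), counting paired fragments over GENCODE v38 exons with a mapping quality of at least 30, without strand and without reads that map to several places or genes. The labels give another read length than the methods, so read sharing was computed for stretches of 50 and 100 bases. The length in the methods is longer than both, and sharing at that length was not computed. Symbols were taken from GENCODE v44 and matched 60463 of 60708 identifiers.

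CPM used TMM factors over all 24 libraries. Each comparison was fitted with edgeR v4.0.16 (R v4.3.3) on its own libraries after filterByExpr and TMM scaling, using quasi-likelihood F-tests, p-values adjusted across every gene in the fit (Benjamini-Hochberg) and no fold threshold, with the standard error taken as the log2 fold change divided by the root of F. The ratio of CPM means and the fitted value differ by at most 0.08 on the log2 scale for the members. The fits were tested on simulated data. Intervals and floors of single counts are not given, since replicates supply the error. Replicate pairs differed by 1.98 to 355 times the counting noise (chi-square per degree of freedom), so none was treated as a repeat deposit of another, which does not show that they were separate cultures.

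Members and pathway lists were chosen with earlier results of these data known. All 9 members are named in every comparison. Of the 69 listed genes the text names, per comparison, up to 3 higher and 3 lower genes, ranked by adjusted p among called genes whose CPM do not overlap between groups (for the interaction, between stimulated and unstimulated libraries of either line), and KEAP1, BACH1, GCLC, SRXN1 and SLC7A11 throughout. Likeness is Pearson's r of log2(CPM + 0.5). Some genes picked by these rules are not reported here. AKR1C4 and AKR1D1 were below the count filter in every comparison. The genes around AKR1C, and CBR3 and TUBAL3, were named after their values were seen. Alternatives were DESeq2 v1.42.0, its size factors, no filter, at least 10 counts in every library, all 12 sphere libraries in 1 fit, the replicate number as a block, flow cell as a term, summed AKR1C counts, each library left out, and, chosen after seeing the data, TMM factors of all 24 libraries and the summed AKR1C counts and the genes around AKR1C without WT replicate 2.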

Additional observations from a re-analysis of the deposited data

Results flagged for a closer look

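In the interaction fit over the 12 sphere libraries, 5 of the 9 members were called for a difference between the TGFβ responses of MII and MI spheres. Over all 18591 genes tested, 12.6% were called positive and 9.75% negative. The members were chosen with earlier results of these counts known, so their values are a description. The values are the log2 response of MII minus that of MI. They were 0.83 for NQO1, 0.50 for AKR1C1, 0.43 for HMOX1, 0.34 for TXNRD1 and -0.56 for AKR1B10, and that of HMOX1 was lost in 15 of 19 alternative fits. The responses themselves, in MI and in MII, were -0.96 and -0.14 for NQO1, -0.60 and -0.11 for AKR1C1, -0.57 and -0.15 for HMOX1, -0.44 and -0.10 for TXNRD1, and -0.50 and -1.07 for AKR1B10.

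Among the named pathway genes the difference was 2.84 for SRXN1, whose counts are low and mostly overlap another gene, 1.91 for GPX2, 1.69 for ALDH3A1, 1.01 for SQSTM1, 0.54 for GCLC, 0.32 for BACH1, -0.47 for PRDX5, -0.53 for SLC7A11 and -0.54 for ME1. Groups of 3 libraries are too small for a test of single outlying libraries, so none was made, although WT replicate 2 stands apart as described.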

How the results depend on the processing

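The counts of listed pathway genes called in MI, in MII, between the lines, in the interaction and in siSMAD were within 1.5 times the reported count under every alternative run. Those of SLUG KO against WT were not: instead of 1 gene higher, DESeq2 called 6, the fit without a count filter 4, that with at least 10 counts in every library 0 and that with the replicate number as a block 0. Leaving out each library in turn gave 0 to 33 genes higher and 0 to 3 lower, the highest counts without WT replicate 2. NFE2L3, the 1 listed gene called there, was lost in 7 of these fits.

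Over the alternative fits of single named genes 1446 values kept their direction and side of the threshold, 66 lost the call, 18 gained it and 26 changed sign. No called value of a member changed sign in the fits run, and those that did were not called in the reported fit. GCLM in MII (-0.02) became 0.02 with DESeq2, 0.019 with TMM factors of all 24 libraries and without a filter, and 0.016 with all 12 sphere libraries, and ranged from -0.048 to 0.023 with libraries left out. AKR1C3 and BACH1 in MII became -0.023 and -0.014 with at least 10 counts in every library, and KEAP1 0.017 without 1 library. In SLUG KO, GCLM (-0.02) became 0.019 with DESeq2, 0.006 with factors of all 24 libraries, 0.035 without a filter and 0.098 with the replicate block, and it ranged from -0.34 to 0.22 with libraries left out, as AKR1B10 did from -0.47 to 0.064. In siSMAD, HMOX1 and KEAP1 became 0.019 and -0.023 with flow cell as a term, and leaving out 1 library gave -0.011 to 0.082 for NFE2L2, -0.003 to 0.095 for NQO1, -0.033 to 0.12 for GCLC and up to 0.036 for HMOX1. The interaction of GCLM ran from -0.005 to 0.116. The cause was not tested.

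The replicate numbers did not pair the libraries: deviations of same-numbered libraries correlated between -0.12 and 0.032. With the number as a block 27 listed genes rose and 22 fell in MI, 27 and 17 in MII, 25 and 30 between the lines, 19 and 17 in the interaction and 16 and 15 in siSMAD, against 0 and 0 in SLUG KO, where 87 genes in all were then called higher and 168 lower, against 252 and 329.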
